A study of Mus musculus with 9 samples.

Results

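The 36 genes described here are the measured genes of a list of cell cycle and DNA replication genes, out of 22048 genes in the deposited count table. The list is one of symbols, with no threshold on measured values but drawn up with earlier results of these data known, and each symbol was matched to its Ensembl gene identifier. By role, 19 act in mitosis, 12 in DNA replication and 5 in G1, the phase before replication. The RNA came from islets of the pancreas of ICR mice, an outbred stock, cultured for 3 days in RPMI medium with 11.8, 20 or 35 mM glucose. The series names these concentrations normoglycemic, hyperglycemic and extreme hyperglycemic, and 11.8 mM is the control. Each group has 3 libraries, and 9 mice, of sex and age that the labels do not give, supplied the islets. All groups were of one stock, and none carried a transgene, a deletion or a drug. For the highest concentration the treatment protocol has 25 mM, but the sample titles, the characteristics and the design text have 35 mM, the value used here.

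A dividing cell first commits in G1, when D-type cyclins bound to Cdk4 or Cdk6 inactivate the retinoblastoma protein and release E2F transcription factors. E2F then turns on the genes that load the MCM helicase onto DNA and supply nucleotides, and later the B-MYB, FOXM1 and CHR-binding complexes turn on the genes for spindle assembly, chromosome segregation and cell division. In adult islets few beta cells divide, cyclin D2 and Cdk4 are the main G1 pair of mouse beta cells, the inhibitor p27 (Cdkn1b) restrains them, and glucose is known as a mitogen of rodent beta cells.

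Each library is the sum of 3 barcoded sub-libraries, numbered here as barcode sets 1, 2 and 3 in the order of the deposited sample sheet. Libraries held 3228648 to 4559561 gene counts, with at least 1 count in 13366 to 13923 genes. Levels are given as CPM, the count of a gene relative to all gene counts of its library, with library sizes scaled by TMM, and 3 counts, the limit that a count of 0 allows, corresponded to 0.694 to 0.924 CPM. The islet label held by most markers, since Ins1, an insulin gene, lay between 174000 and 244000 CPM, but Mafa, a beta cell transcription factor, had no count in 8 of the 9 libraries. Alignments that were not unique took 21.9% of the counted reads in the first 11.8 mM library, 22.6% in the first 35 mM library and 12.6% to 16.2% in the other 7. Nothing in the labels ties a library to a mouse of its own, and the p-values therefore cover the spread among these 9 libraries alone, part of which may be technical. In these bulk samples fewer cells of a type and less RNA per cell cannot be told apart, nor can dividing beta cells from other dividing cells.

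None of the 36 genes was called at any concentration, although most mitosis genes stood lower at 35 mM than at 11.8 mM. A gene was called at an adjusted p under 0.05 by the quasi-likelihood test of edgeR, adjusted after Benjamini and Hochberg over the 9739 genes that passed the expression filter, which 25 of the 36 did. The share of all tested genes called was 0.185% at 20 against 11.8 mM, 0.863% at 35 against 11.8 mM and 0.0308% at 35 against 20 mM. By DESeq2's Wald test 0 members were called too, but only 3, 7 and 36 members had an adjusted p there, and 2, 5 and 2 had an unadjusted p under 0.05. At an unadjusted p under 0.05, 6 of the 25 tested members were lower and 0 higher at 35 against 11.8 mM. Among all tested genes 4.89% were lower and 5.63% higher by that rule. At 35 against 20 mM these counts were 6 lower and 0 higher (all tested genes 2.56% lower and 2.73% higher). At 20 against 11.8 mM they were 2 lower and 1 higher (all tested genes 3.52% lower and 4.45% higher). The 3 comparisons share libraries, so that each group enters a pair of them.

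The mitosis genes carried most of the lower values. At 35 against 11.8 mM, 10 of the 11 tested mitosis genes had a log2 fold change below 0 (50.4% of all genes tested), with a median of -0.64 where all genes had a median of 0. The 11 are those abundant enough to be tested, and over all 19 the mean was lower at 35 mM in 17 and higher in 2. In 6 of the 19, namely Mki67, Top2a, Cdk1, Cenpf, Kif11 and Kif20a, every 35 mM library lay below every 11.8 mM library, as did 5.59% of all genes with a count. Ube2c, a ubiquitin-conjugating enzyme of the anaphase-promoting complex, was the tested mitosis gene with a value above 0 (0.21 ± 0.49, SE). At 20 against 11.8 mM, 5 of the 11 were above 0 and 6 below, with a median of -0.11, and Plk1 and Kif11 did not overlap (5.17% of all genes with a count were lower in every library). At 35 against 20 mM, 9 of the 11 were below 0, with a median of -0.46.

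Top2a, Cenpf and Cdk1 were the 3 mitosis genes with the smallest p at 35 against 11.8 mM, and their promoters are shown because many mitosis genes share known control motifs there. Each line gives the 250 bases before the start of transcription in RefSeq (GRCm38.p6), 5′ to 3′ on the gene's strand. Capitals mark the CHR (TTTGAA), the CCAAT box (CCAAT) and 4 words of the E2F site (TTCCCGC and the variant TTCGCGC, then also TTGGCGC and the related TTGCCGC), each on either strand, so that ATTGG and TTCAAA are the same motifs read backwards. The windows are chr11:99024190-99024439 for Top2a, chr1:189688087-189688336 for Cenpf and chr10:69352913-69353162 for Cdk1, all on the minus strand. In Cdk1 the last 26 bases lie in an exon of a longer transcript in GENCODE M21.
Top2a: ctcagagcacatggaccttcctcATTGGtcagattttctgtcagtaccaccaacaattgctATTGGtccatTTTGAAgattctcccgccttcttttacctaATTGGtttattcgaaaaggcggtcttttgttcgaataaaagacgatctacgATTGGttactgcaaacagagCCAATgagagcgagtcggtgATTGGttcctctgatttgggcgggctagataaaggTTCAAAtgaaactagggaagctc
Cenpf: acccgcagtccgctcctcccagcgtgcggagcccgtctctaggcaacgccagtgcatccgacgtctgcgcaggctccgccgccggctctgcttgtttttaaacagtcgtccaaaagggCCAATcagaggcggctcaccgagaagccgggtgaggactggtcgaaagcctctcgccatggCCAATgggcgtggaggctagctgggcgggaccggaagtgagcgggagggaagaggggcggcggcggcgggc
Cdk1: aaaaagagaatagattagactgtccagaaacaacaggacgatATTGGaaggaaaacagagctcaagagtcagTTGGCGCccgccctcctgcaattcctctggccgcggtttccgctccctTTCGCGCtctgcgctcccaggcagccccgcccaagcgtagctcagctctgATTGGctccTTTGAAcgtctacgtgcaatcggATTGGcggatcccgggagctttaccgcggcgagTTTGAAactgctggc
Top2a holds 2 CHR matches and 6 CCAAT boxes, Cenpf 2 CCAAT boxes, and Cdk1 2 CHR matches, 3 CCAAT boxes and 2 E2F words. Of the 14 mitosis genes with a promoter in the table, 13 hold a CCAAT box, 6 a CHR and 3 an E2F word. Among the 32851 promoters of that table, 33.8% hold a CCAAT box, 16% a CHR and 7.89% an E2F word. These matches are letters in a window and no measure of binding.

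Top2a, the topoisomerase that untangles chromosomes before they separate (ENSMUSG00000020914, chr11:98992943-99024189), had the most counts of the mitosis genes. Its level was 53, 52.5 and 46.6 CPM in the 3 libraries at 11.8 mM, 61.3, 35.9 and 36.1 CPM at 20 mM, and 30.3, 27.3 and 40.3 CPM at 35 mM. All 35 mM libraries lay below all 11.8 mM libraries, while the 20 mM libraries spanned from above the control range to within the 35 mM range. The log2 fold change at 35 against 11.8 mM was -0.64 ± 0.19 (SE, n = 3 libraries a group; adjusted p = 0.132 by edgeR). With no expression filter, when 15985 genes were tested, the same log2 fold change had an adjusted p of 0.0172 by edgeR. The unadjusted p by edgeR was 0.000101 there and 0.00207 with the filter, so that the fit differed and not the adjustment alone.

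Mki67 encodes Ki-67, the coat protein of mitotic chromosomes used as a marker of dividing cells (ENSMUSG00000031004, chr7:135689784-135716361). It measured 24.8, 9.95 and 11.4 CPM at 11.8 mM, 20.3, 9.85 and 11 CPM at 20 mM, and 9.39, 7.26 and 6.25 CPM at 35 mM. The 35 mM libraries were the lowest 3 of the 9, and 1 library at each of the lower concentrations stood well above the rest. The log2 fold change was -1 ± 0.36 at 35 against 11.8 mM (adjusted p = 0.324 by edgeR) and -0.82 ± 0.37 at 35 against 20 mM (adjusted p = 0.932). Without the first 11.8 mM library the former was -0.47 (adjusted p = 0.609), and with no expression filter it was -1 with an adjusted p of 0.015.

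Cdk1, the kinase that drives entry into mitosis, measured 8.79, 6.94 and 7.28 CPM at 11.8 mM, 7.39, 6.82 and 4.23 CPM at 20 mM, and 3.49, 4.94 and 3.12 CPM at 35 mM. Cenpf, a kinetochore protein of late G2 and mitosis, measured 10.9, 8.1 and 9.03 CPM, then 8.93, 6.57 and 8.18 CPM, then 4.56, 2.9 and 6.82 CPM. In both genes the 11.8 and 35 mM groups did not overlap, and the 20 mM libraries overlapped both groups. Their log2 fold changes at 35 against 11.8 mM were -0.99 ± 0.32 for Cdk1 (adjusted p = 0.197 by edgeR) and -0.96 ± 0.30 for Cenpf (adjusted p = 0.178). Leaving out any 1 library kept Cdk1 between -1.20 and -0.86 and Cenpf between -1.30 and -0.71, but with barcode set 3 left out of every library they were -0.63 and -0.70.

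Plk1, a kinase of spindle assembly and mitotic exit, showed another pattern. It measured 11.2, 4.86 and 2.04 CPM at 11.8 mM, 1.54, 2.02 and 1.97 CPM at 20 mM, and 2.68, 1.45 and 4.83 CPM at 35 mM. The 3 control libraries were spread more than 5-fold, the 20 mM libraries lay just below the lowest of them, and the 35 mM libraries lay within and below the control range. At 20 against 11.8 mM the log2 fold change was -1.69 ± 0.52 (adjusted p = 0.298 by edgeR). It was -0.92 without the first 11.8 mM library (adjusted p = 0.78), and its adjusted p was 0.034 with no expression filter. At 35 against 11.8 mM it was -1.01 ± 0.48 (adjusted p = 0.466), and -0.24 without the first 11.8 mM library.

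Birc5, the survivin subunit of the chromosomal passenger complex, and Ccnb1, cyclin B1 and the partner of Cdk1, were lower at 35 mM than at 20 mM in every library. Birc5 measured 5.6, 5.09 and 4.08 CPM at 11.8 mM, 5.23, 5.56 and 5.36 CPM at 20 mM, and 2.41, 2.61 and 4.26 CPM at 35 mM. Ccnb1 measured 6.4, 5.56 and 2.33 CPM, then 5.23, 4.55 and 7.05 CPM, then 2.15, 4.06 and 3.12 CPM. For both genes the 35 mM group overlapped the 11.8 mM group. At 35 against 20 mM the log2 fold changes were -0.80 ± 0.36 for Birc5 and -0.85 ± 0.39 for Ccnb1, each with an adjusted p of 0.932 by edgeR. Together with Mki67 they made 3 of the 19 mitosis genes with no overlap in that comparison (4.78% of all genes with a count). Without the first 35 mM library the values were -0.64 and -0.63, and with barcode set 2 left out of every library -0.49 and -0.32.

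The other tested mitosis genes differed by less than the spread between libraries. Tpx2, an activator of Aurora A on the spindle, measured 16.8, 10.6 and 6.7 CPM at 11.8 mM, 15.1, 9.85 and 10.2 CPM at 20 mM, and 5.9, 8.71 and 10.8 CPM at 35 mM. Its log2 fold change at 35 against 11.8 mM was -0.44 ± 0.30, and -0.06 without the first 11.8 mM library. That of Cenpa, the histone variant of centromeres, was -0.30 ± 0.35. Ccna2, cyclin A2 of S phase and G2, stood at -0.18 ± 0.44. The plot of mitosis gene levels shows these genes by library.

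**Figure D1:**
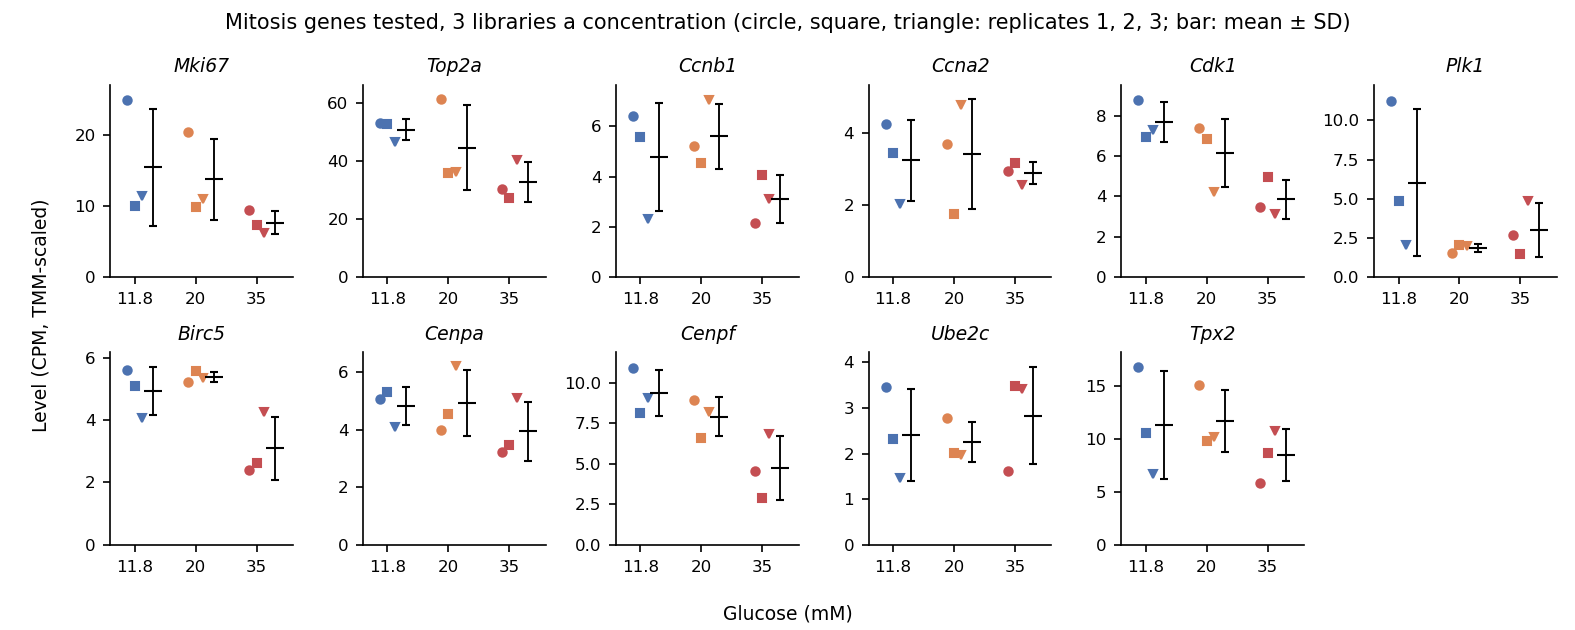
Levels of the 11 tested mitosis genes in CPM (vertical axes from 0, scaled per gene) against glucose in mM, with 1 point per library and bars for the mean ± SD of 3 libraries. For Mki67, Top2a, Cdk1 and Cenpf all 35 mM points lie below all 11.8 mM points, and in Mki67 and Plk1 the first 11.8 mM library (circle) stands above the others.

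The 8 mitosis genes that did not pass the expression filter held 6 to 52 counts over the 9 libraries together. They are Ccnb2 (cyclin B2, 52 counts), the spindle checkpoint genes Bub1 (11) and Bub1b (15), the Aurora kinases Aurka (38) and Aurkb (6), the transcription factor Foxm1 (34), and the mitotic motors Kif11 (35) and Kif20a (35). Aurkb had no count in 6 libraries, among them all 3 at 35 mM, Bub1b none in 3, and Bub1 and Aurka none in 1 each. Kif11, which pushes spindle poles apart, averaged 1.67, 0.843 and 0.661 CPM at 11.8, 20 and 35 mM. Kif20a, a motor of cytokinesis, averaged 1.61, 1.04 and 0.465 CPM. For both motors every 35 mM library lay below every 11.8 mM library, at levels of 1 to 10 counts a library. The 8 genes summed to 8.85 ± 1.40 CPM at 11.8 mM, 6.27 ± 3.29 CPM at 20 mM and 5.34 ± 0.576 CPM at 35 mM (mean ± SD, n = 3).

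The replication genes differed less between concentrations than the mitosis genes did in their medians, a difference that was not tested. At 35 against 11.8 mM, 6 of the 9 tested replication genes were below 0, with a median log2 fold change of -0.22, and over all 12 the mean was lower at 35 mM in 9. Pcna was the gene of the 12 with no overlap between the groups (5.59% of all genes with a count were lower in every library). At 20 against 11.8 mM, 5 of the 9 were above 0 and 4 below, with a median of 0.09. At 35 against 20 mM, 7 were below 0, with a median of -0.21, and Mcm5, Mcm6 and Ccne1 were lower in every library (4.78% of all genes with a count).

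Among the 3 replication genes with the smallest p at 35 against 11.8 mM, Pcna, Mcm5 and Rrm2, the promoters of Mcm5 and Rrm2 are shown, because E2F controls many genes of this group. The window of Pcna holds 134 bases of an exon of a longer transcript in GENCODE M21 and is not printed. Build, length and capitals are as for the mitosis genes, and the windows are chr8:75109259-75109508 for Mcm5 and chr12:24708004-24708253 for Rrm2, both on the plus strand. In Rrm2 the last 13 bases lie in an exon of a longer transcript. For Mcm5 GENCODE M21 has a different start, at chr8:75109569, further along the gene than the RefSeq start used for the window.
Mcm5: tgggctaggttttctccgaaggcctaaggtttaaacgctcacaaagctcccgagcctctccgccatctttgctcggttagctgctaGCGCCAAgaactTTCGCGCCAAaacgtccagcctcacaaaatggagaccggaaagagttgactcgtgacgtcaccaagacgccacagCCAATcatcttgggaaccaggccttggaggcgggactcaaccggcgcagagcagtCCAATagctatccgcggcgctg
Rrm2: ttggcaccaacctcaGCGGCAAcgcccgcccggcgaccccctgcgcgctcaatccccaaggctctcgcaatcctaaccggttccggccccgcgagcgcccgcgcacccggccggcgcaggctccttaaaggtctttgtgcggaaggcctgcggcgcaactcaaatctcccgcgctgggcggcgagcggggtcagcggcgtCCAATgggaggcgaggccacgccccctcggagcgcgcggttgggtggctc
Mcm5 holds 3 E2F matches, of which an overlapping pair runs together as 1 stretch of capitals, and 2 CCAAT boxes. Rrm2 holds 1 E2F word and 1 CCAAT box. Of the 10 replication genes with a promoter in the table, 5 hold an E2F word, 7 a CCAAT box and 1 a CHR. Of the 3 G1 genes with one, Cdkn1b holds CCAAT boxes, and neither a CHR nor an E2F word is in any of the 3 windows.

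Pcna, the sliding clamp of the replication fork, measured 5.6, 6.25 and 6.99 CPM at 11.8 mM, 5.85, 6.32 and 1.41 CPM at 20 mM, and 4.29, 2.9 and 4.55 CPM at 35 mM. The 35 mM libraries were lower than the control libraries, and the lowest of all 9 was the third 20 mM library. Its log2 fold change at 35 against 11.8 mM was -0.67 ± 0.38 (adjusted p = 0.571 by edgeR), and -0.10 with barcode set 3 left out of every library. GENCODE lists 2 pseudogenes named after Pcna, so its count may be split with near-identical copies.

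The MCM genes encode the 6 subunits of the helicase that opens DNA at the fork. Mcm7, the MCM gene with the most counts, measured 25.3, 14.4 and 15.7 CPM at 11.8 mM, 25.6, 16.7 and 16.9 CPM at 20 mM, and 15.6, 17.4 and 14.5 CPM at 35 mM. Mcm6 measured 10.4, 7.18 and 5.24 CPM, then 9.85, 10.4 and 12.1 CPM, then 9.66, 3.77 and 6.25 CPM. Mcm5 measured 4.8, 2.31 and 3.79 CPM, then 4, 3.54 and 4.51 CPM, then 2.15, 2.03 and 2.56 CPM. Mcm5 and Mcm6 were lower at 35 mM than at 20 mM in every library, whereas Mcm7 differed from its other values mainly in the first library at 11.8 mM and the first at 20 mM. At 35 against 20 mM the log2 fold change was -0.83 ± 0.43 for Mcm5 (adjusted p = 0.932 by edgeR) and -0.70 ± 0.30 for Mcm6 (adjusted p = 0.911). At 35 against 11.8 mM Mcm5 stood at -0.67 ± 0.43, Mcm2 at -0.41 ± 0.36, Mcm7 at -0.22 ± 0.23, Mcm6 at -0.21 ± 0.31 and Mcm4 at 0.10 ± 0.50. The 6 subunits, untested Mcm3 included, summed to 52, 32.2 and 35.5 CPM at 11.8 mM, 51.7, 38.4 and 41.2 CPM at 20 mM, and 33, 34 and 32.7 CPM at 35 mM. The helicase sum at 35 mM was close to that of the lowest control library and varied less among its libraries than in the other groups.

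Ccne2, a cyclin E that activates Cdk2 at the start of S phase, was the member with an unadjusted p under 0.05 in the upward direction at 20 mM. It measured 7.2, 5.32 and 2.62 CPM at 11.8 mM, 5.85, 9.85 and 10.4 CPM at 20 mM, and 5.37, 4.94 and 7.1 CPM at 35 mM. A pair of 20 mM libraries lay above all others, and the remaining one lay within the control range. The log2 fold change at 20 against 11.8 mM was 0.78 ± 0.32 (adjusted p = 0.507 by edgeR), and 0.49 without the third 11.8 mM library. Exons of Ccne2 overlap Ints8 on the opposite strand, and the strand used in counting is not given in the sources used here, so that reads of the 2 genes may be mixed.

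Rrm2, the regulated subunit of ribonucleotide reductase, stood at -0.84 ± 0.45 at 20 against 11.8 mM and at -0.52 ± 0.43 at 35 against 11.8 mM. Tyms, the thymidylate synthase, stood at 0.32 ± 0.44 and 0.24 ± 0.44. All groups overlapped in both genes, and neither gene approached the threshold. Mcm3 (71 counts in all), Ccne1 (cyclin E1, 60 counts) and Cdc6, a loader of the helicase (14 counts, with none in 2 libraries), did not pass the filter.

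The G1 genes were measured with smaller standard errors than most members, apart from Ccnd3, and no difference in the D-type cyclins was detectable. Ccnd2, cyclin D2, measured 756, 501 and 677 CPM at 11.8 mM, 515, 594 and 670 CPM at 20 mM, and 645, 722 and 595 CPM at 35 mM. Ccnd1, cyclin D1, measured 39.2, 33.6 and 35.5 CPM, then 33.9, 39.4 and 41.2 CPM, then 38.9, 44.1 and 34.7 CPM. Ccnd3, cyclin D3, measured 5.33, 18.3 and 8.45 CPM, then 11.4, 12.9 and 7.33 CPM, then 11.8, 12.5 and 9.09 CPM. The 3 groups overlapped for each D-type cyclin, and the widest spread was that of Ccnd3 among the control libraries. Between 35 and 11.8 mM the log2 fold change was 0.02 ± 0.14 for Ccnd2, 0.12 ± 0.16 for Ccnd1 and 0.03 ± 0.34 for Ccnd3.

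Cdk4, the catalytic partner of the D-type cyclins, was the exception among the G1 genes. It measured 121, 164 and 134 CPM at 11.8 mM, 120, 96.3 and 124 CPM at 20 mM, and 99.8, 109 and 109 CPM at 35 mM. Each 35 mM library lay below each control library (5.59% of all genes with a count did so), and the 20 mM libraries ranged from below the 35 mM libraries to within the control range. The log2 fold change was -0.40 ± 0.14 at 35 against 11.8 mM (adjusted p = 0.243 by edgeR) and -0.30 ± 0.14 at 20 against 11.8 mM (adjusted p = 0.585). Without the second 11.8 mM library the former was -0.27. Exons of Cdk4 overlap Tspan31 on the opposite strand, so its count may include reads of that gene. Cdkn1b, the inhibitor p27 of cyclin-dependent kinases, measured 60.2, 50.2 and 63.2 CPM at 11.8 mM, 40, 47.5 and 56.1 CPM at 20 mM, and 51.8, 52.6 and 44.9 CPM at 35 mM, with a log2 fold change of -0.22 ± 0.15 at 35 against 11.8 mM.

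**Figure D2:**
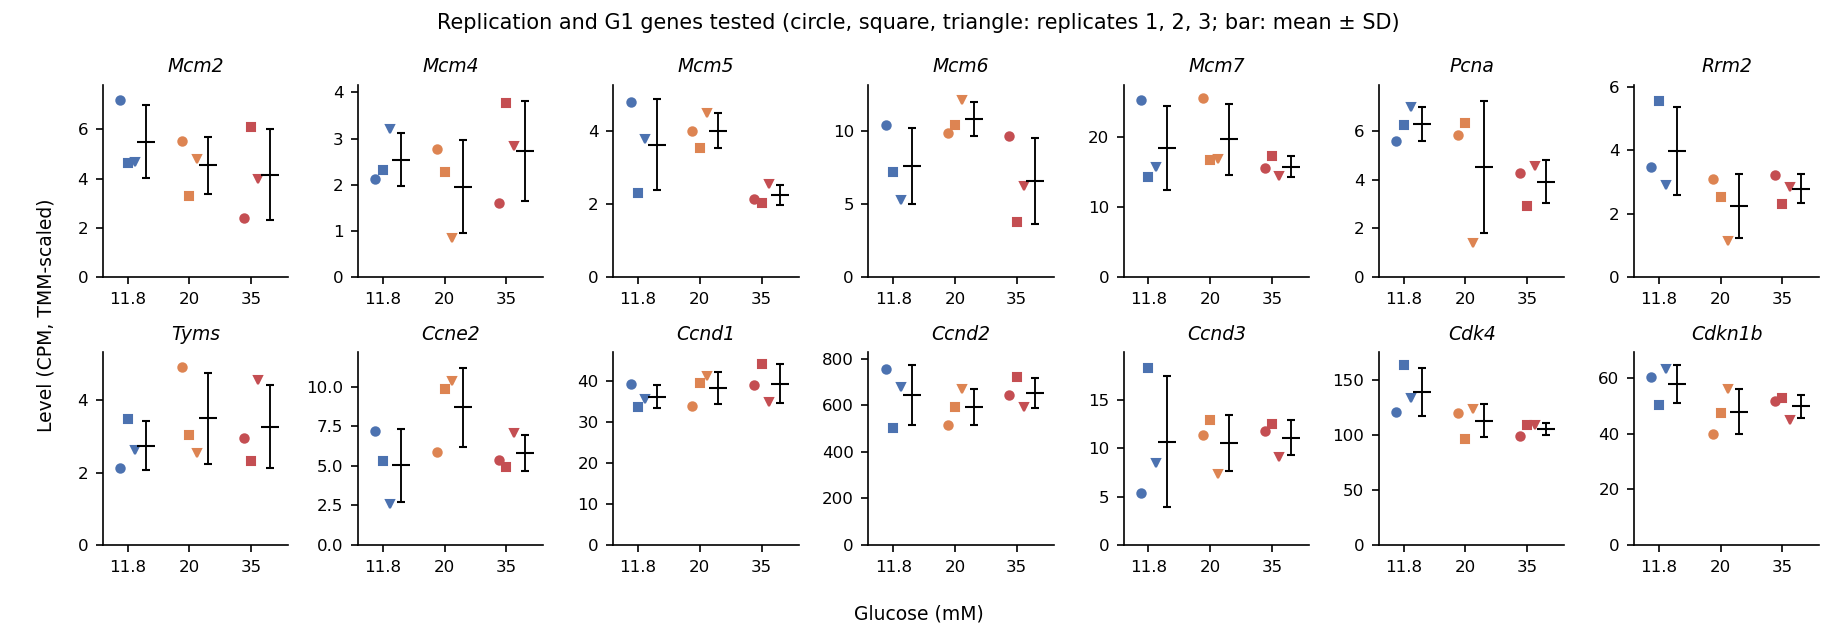
Levels of the 9 tested replication genes and the 5 G1 genes in CPM (vertical axes from 0, scaled per gene) against glucose in mM, with 1 point per library and bars for the mean ± SD of 3 libraries. The Pcna and Cdk4 points at 35 mM lie below all points at 11.8 mM, and Mcm5 and Mcm6 lie lower at 35 than at 20 mM.

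**Figure D3:**
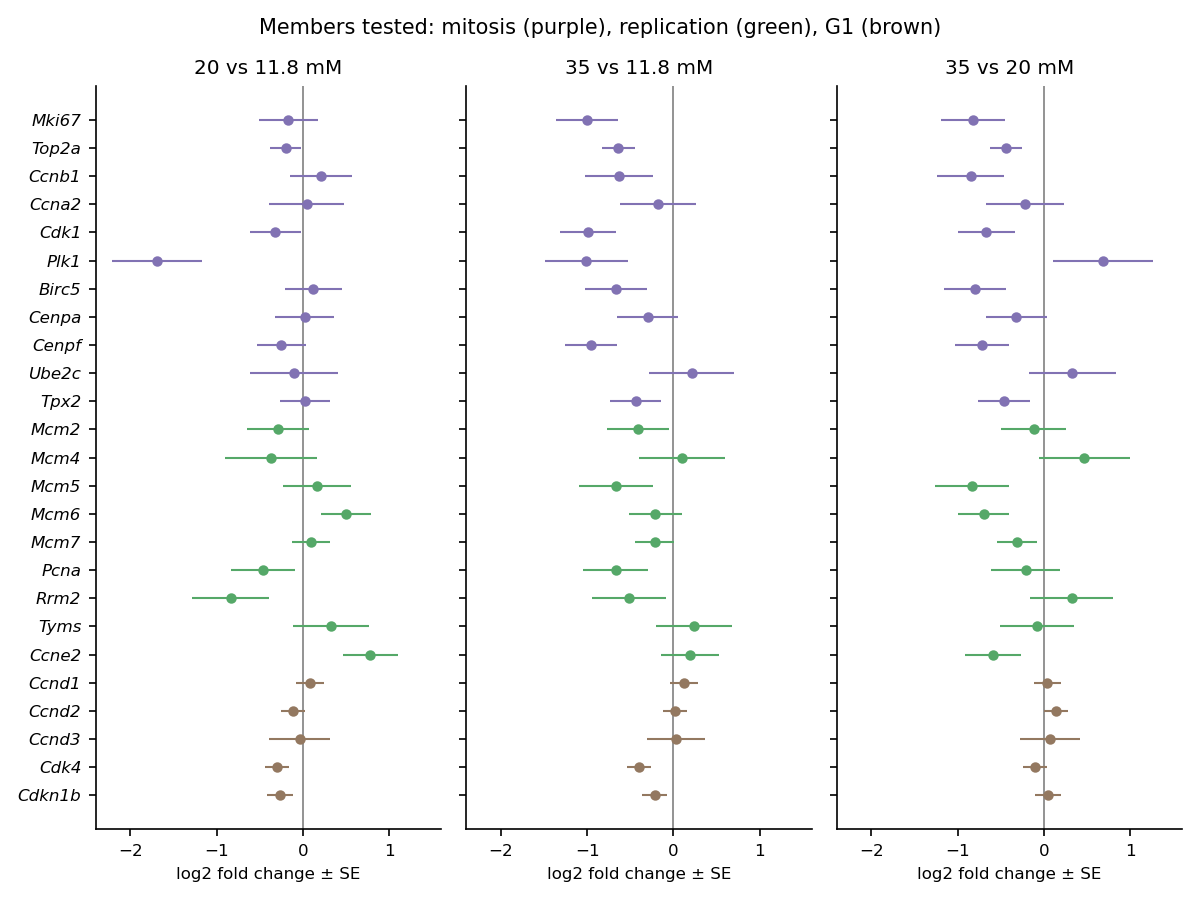
Log2 fold changes ± SE of the 25 tested members in the 3 comparisons, with mitosis genes in purple, replication genes in green and G1 genes in brown. At 35 against 11.8 mM 10 of the 11 mitosis genes lie left of 0, and at 20 against 11.8 mM the Plk1 value of -1.69 stands apart.

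Exons of 10 members overlap a gene on the opposite strand, which bears on Ccna2, Plk1, Ube2c, Kif20a, Mcm7, Ccne2, Ccnd1, Ccnd2, Ccnd3 and Cdk4. Top2a, Foxm1 and Mcm7 overlap a gene on their own strand, and Ccnb1, Ccnb2, Pcna, Tyms and Ccnd3 have named pseudogenes. Their counts are uncertain to that extent. The other members, among them Mki67, Cdk1, Cenpf, Birc5, Tpx2, Cenpa, Mcm2, Rrm2 and Cdkn1b, have none of these overlaps or named pseudogenes. Copies that do not carry the name of the gene were not searched.

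Summed over all members of a group, filtered or not, the mitosis genes showed the largest difference. The sum of the 19 was 160, 125 and 104 CPM at 11.8 mM, 145, 95 and 100 CPM at 20 mM, and 73.5, 74.6 and 96.6 CPM at 35 mM, from 257 to 599 counts a library. Every 35 mM library lay below every control library, but the highest of them lay above the lowest 20 mM library. The means were 130 ± 28.0, 114 ± 27.6 and 81.6 ± 13.0 CPM (SD, n = 3), so that the 35 mM mean was 0.63 of the control mean, a log2 ratio of -0.67. With 3 libraries in each group the smallest p of an exact permutation test would be 0.1, and no p is given for a sum over genes chosen with results known. Top2a and Mki67 hold much of the sum, and without them the other 17 genes summed to 63.5 ± 17.8, 55.4 ± 7.47 and 41.3 ± 8.16 CPM, a log2 ratio of -0.62 at 35 against 11.8 mM.

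The 12 replication genes summed to 73.6, 55.6 and 51.3 CPM at 11.8 mM, 73.6, 62.7 and 59.8 CPM at 20 mM, and 50.7, 48.2 and 53.7 CPM at 35 mM. The 35 mM libraries lay below all 20 mM libraries and overlapped the control libraries. The log2 ratio of means was -0.24 at 35 against 11.8 mM, 0.12 at 20 against 11.8 mM and -0.36 at 35 against 20 mM. The 5 G1 genes summed to 889 ± 110, 803 ± 90.1 and 860 ± 74.6 CPM, with all groups overlapping and most counts from Ccnd2. Without Ccnd2 the other 4 summed to 244 ± 20.2, 210 ± 16.8 and 206 ± 10.6 CPM, a log2 ratio of -0.25 at 35 against 11.8 mM. The mean was highest at 11.8 mM and lowest at 35 mM, with 20 mM between, in 7 of the 19 mitosis genes, 3 of the 12 replication genes and 1 of the 5 G1 genes, and in 17.2% of all genes with a count.

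**Figure D4:**
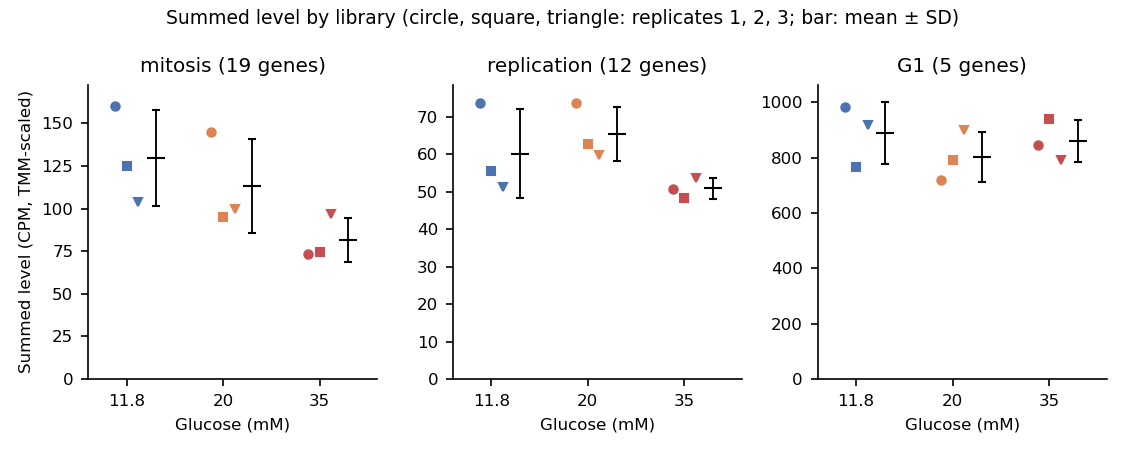
Summed level in CPM (vertical axes from 0) of the 19 mitosis, 12 replication and 5 G1 genes against glucose in mM, with 1 point per library and bars for the mean ± SD of 3 libraries. The mitosis sum at 35 mM (73.5 to 96.6 CPM) lies below that at 11.8 mM (104 to 160 CPM). In the mitosis and replication panels the first libraries at 11.8 and 20 mM are the highest of their groups.

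The first 11.8 mM library was the highest of all for the mitosis sum, and the first 20 mM library was next. As CPM with no TMM scaling the 3 sub-libraries of the first 11.8 mM library stood at 165, 180 and 201 for the mitosis genes. Those of the first 20 mM library stood at 144, 152 and 143. The other control sub-libraries ranged from 71.7 to 134 and the 9 at 35 mM from 64.1 to 106. All 3 sub-libraries of each high library were thus above all those at 35 mM. The share of alignments that were not unique was high in the first 11.8 mM library (mitosis sum of 160 CPM) and in the first 35 mM library (73.5 CPM), and its part in these values was not tested. Leaving out any 1 library kept the mitosis log2 ratio at 35 against 11.8 mM between -0.81 and -0.49.

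The rest of the pathway was read from 132 other genes that encode further replication factors (51 genes), mitosis proteins (52) and G1 regulators with the RB and E2F families (29). Of these 76 passed the filter, and none was called in any comparison by edgeR. At an unadjusted p under 0.05, 2 of the 76 were higher and 7 lower at 35 against 11.8 mM (all tested genes 5.63% higher and 4.89% lower), and 46 were below 0 (50.4% of all genes tested). The counts were 2 higher and 1 lower at 20 against 11.8 mM, with 42 below 0, and 3 higher and 6 lower at 35 against 20 mM, with 52 below 0 (50.2% of all genes tested in both). The median log2 fold change was -0.32 for the 23 tested other mitosis genes, -0.19 for the 34 other replication genes and 0.02 for the 19 G1 regulators. At 20 against 11.8 mM the same medians were -0.10, -0.02 and 0.03, and at 35 against 20 mM they were -0.31, -0.19 and 0.01. Summed over all members, filtered or not, the 52 other mitosis genes gave 223 to 280 CPM at 11.8 mM, 251 to 285 CPM at 20 mM and 193 to 257 CPM at 35 mM. The groups overlapped, and the log2 ratio of means was -0.13 at 35 against 11.8 mM and 0.10 at 20 against 11.8 mM, against -0.67 and -0.19 for the 19 mitosis members. For the 51 other replication genes it was -0.15 and 0.09. Spc25, described below, made up much of the sum of the 52 mitosis genes and was higher at 20 and 35 mM than at 11.8 mM. It averaged 67.9, 94.7 and 82.6 CPM at 11.8, 20 and 35 mM, of mean sums of 247, 265 and 226 CPM. The sum without Spc25 was not taken.

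The genes with the smallest p in each of these lists did not all point downward. Spc25, a subunit of the Ndc80 kinetochore complex, averaged 67.9 ± 2.80 CPM at 11.8 mM, 94.7 ± 8.47 CPM at 20 mM and 82.6 ± 13.9 CPM at 35 mM. Its log2 fold change at 20 against 11.8 mM was 0.48 ± 0.14, with an adjusted p of 0.223 by edgeR and 0.046 by DESeq2's Wald test. In that Wald test only 2 of the other cell cycle genes had an adjusted p. Cenpn, a centromere protein, averaged 3.08 ± 0.782, 3.32 ± 1.02 and 0.936 ± 0.596 CPM, with a log2 fold change of -1.70 ± 0.58 at 35 against 11.8 mM (adjusted p = 0.227 by edgeR). Spc25 at 20 mM and Cenpn at 35 mM thus differed from the control libraries without overlap, in opposite directions. At 35 against 11.8 mM 5.59% of all genes with a count were lower in every library. The share higher in every library at 20 mM was not counted. Both genes were picked for the smallest p of their list. The Cenpn mean at 35 mM lay near the 0.694 to 0.924 CPM of 3 counts. Among replication factors Orc3, an origin recognition subunit, stood at 0.59 ± 0.23 at 20 against 11.8 mM, and Pole3, an accessory subunit of polymerase epsilon, at 0.57 ± 0.25 at 35 against 20 mM. Among G1 regulators Tfdp2, a partner of E2F, stood at 0.57 ± 0.22 and Cdk6, a kinase of D-type cyclins, at 1.14 ± 0.44 at 35 against 11.8 mM, with adjusted p of 0.312 and 0.318 by edgeR.

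Of 18 known regulators of beta cell proliferation, 15 were tested and 0 called. Prlr, the prolactin receptor that drives beta cell growth in pregnancy, averaged 163 ± 21.3 CPM at 11.8 mM, 212 ± 16.1 CPM at 20 mM and 227 ± 6.62 CPM at 35 mM. Every library at 20 and 35 mM lay above every control library, but the share of all genes that did so was not counted. The log2 fold change of Prlr at 35 against 11.8 mM was 0.48 ± 0.13 (adjusted p = 0.0802 by edgeR). Akt1, a kinase of insulin signalling, averaged 161 ± 21.8, 121 ± 5.14 and 148 ± 2.12 CPM, and its 20 mM libraries lay below all others. Its log2 fold change at 20 against 11.8 mM was -0.41 ± 0.13 (adjusted p = 0.298 by edgeR). In that comparison 5.17% of all genes with a count were lower in every library. Prlr and Akt1 are named because they had the smallest p of the 15 tested regulators.

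Markers of other cell types of the pancreas were read beside the mitosis sum. The 12 fibroblast and stellate cell markers summed to 288 to 486 CPM at 11.8 mM, 206 to 306 CPM at 20 mM and 193 to 328 CPM at 35 mM. Of these, 10 were tested and none was called. At 35 against 11.8 mM 8 of the 10 were below 0 (50.4% of all genes tested), with a median of -0.50. Pdgfra, a defining marker, had no count in 1 library. The 8 endothelial markers summed to 17.3 to 23.1, 11.1 to 20.2 and 12.5 to 15.1 CPM, so that all 35 mM libraries were below all control libraries. Of these, 4 were tested and none was called. All 4 were below 0 at 35 against 11.8 mM (50.4% of all genes tested), with a median of -0.70. Kdr, a defining marker, had no count in 5 libraries. The 12 macrophage and immune markers summed to 166 to 199, 139 to 178 and 119 to 203 CPM. Of the 10 tested, 8 were below 0 at 35 against 11.8 mM (50.4% of all genes tested), with a median of -0.37. In 3 every 35 mM library was lower (5.59% of all genes with a count), and none was called. The T cell gene Cd3e had no count in any of the 9 libraries. Duct markers summed to 197 to 314, 233 to 325 and 308 to 334 CPM, and acinar markers to 3830 to 13500, 7480 to 12900 and 7180 to 10900 CPM. The 10 beta cell markers summed to 449000 to 653000, 503000 to 570000 and 486000 to 594000 CPM, lowest in the first 11.8 mM library, which had the highest mitosis sum. Iapp, the islet amyloid peptide, rose from 13700 ± 434 CPM at 11.8 mM to 21200 ± 564 CPM at 35 mM (adjusted p = 0.00865 by edgeR) and was the called gene of these lists. Markers of alpha, delta and PP cells summed to 30700 to 38300, 35500 to 36700 and 32500 to 36200 CPM. The fibroblast, endothelial and macrophage sums thus had lower means at 35 than at 11.8 mM, as the mitosis sum did. So did the beta cell sum (0.952 of the control mean) and the alpha, delta and PP cell sum (0.97), while duct and acinar sums had higher means. At 35 against 20 mM the log2 ratio was 0.08 for fibroblast, 0.02 for macrophage, -0.17 for endothelial and -0.48 for the mitosis sum. At 20 against 11.8 mM it was -0.64, -0.19, -0.45 and -0.19 in that order. The part of these cells in the mitosis result was not tested.

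**Figure D5:**
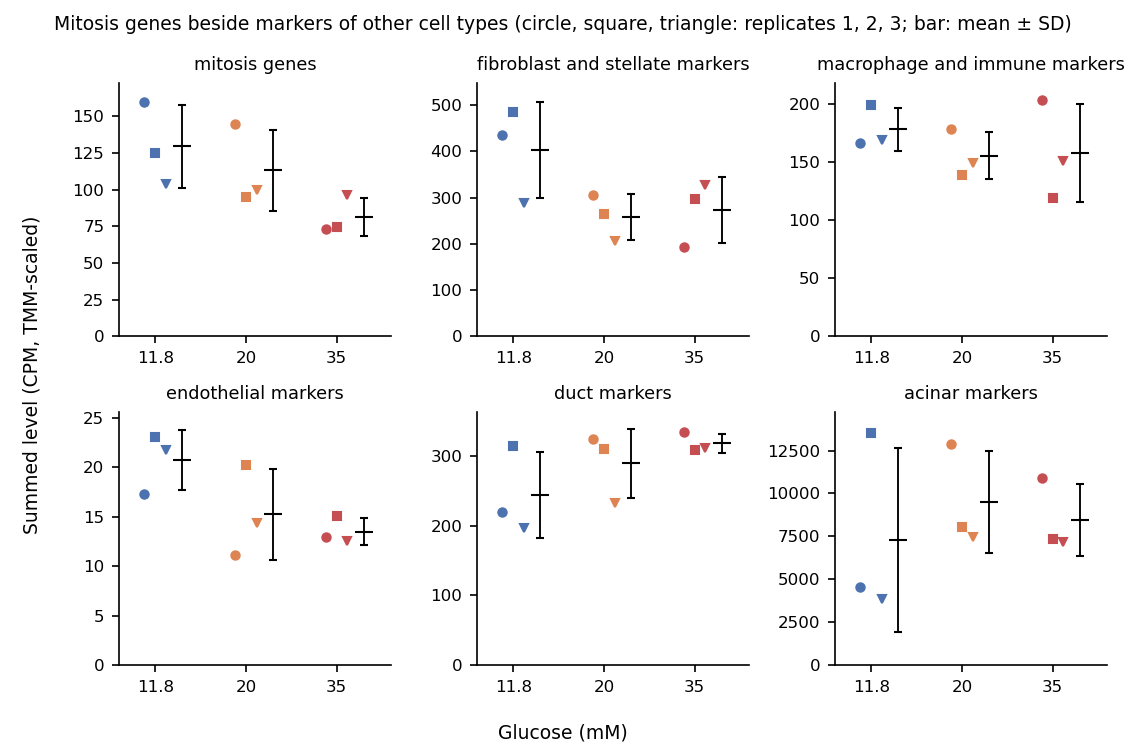
Summed level in CPM (vertical axes from 0) of the 19 mitosis genes and of markers of 5 other cell types against glucose in mM, with 1 point per library and bars for the mean ± SD of 3 libraries. The mitosis and endothelial sums at 35 mM lie below all control libraries, the fibroblast and stellate sum overlaps (193 to 328 against 288 to 486 CPM), and the duct sum is higher in mean.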

How the data were processed

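Islet RNA was made into CEL-Seq2 libraries, which tag transcript 3′ ends, with 3 barcoded sub-libraries per sample. Per the labels' protocols and the values, the authors deposited raw read counts, by gene and sub-library. The submitters' processing notes name cutadapt, TopHat, HTSeq, DESeq2 and GRCm38.p4, and neither versions nor annotation nor strand of counting is given in these sources. Reads were counted, not molecular identifiers, as the highest count was 605402, above the 4096 possible identifiers of 6 bases. Several reads may thus stem from the same molecule, and low counts may rest on fewer molecules than reads. Sub-libraries were summed by the deposited sample sheet; 30 columns of per-sample values tied to no sample were not used. The 92 ERCC spike-ins and 5 summary lines (19.6% to 29.9% of counted reads) were left out. Symbols came from GENCODE M21 (21781 of 22048 genes) and promoters from RefSeq (GRCm38.p6).

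Tests used R 4.3.3 and edgeR 4.0.16 (TMM, filterByExpr, robust quasi-likelihood, a mean per concentration over all 9 libraries, genes called where the p adjusted after Benjamini and Hochberg was under 0.05), and were tested on simulated data. Each SE of a log2 fold change was derived from that test, as its absolute value over the square root of the F statistic. It therefore draws on the spread in all 9 libraries and in other genes. Alternatives were DESeq2 size factors, no filter, 10 CPM in 3 libraries, the DESeq2 1.42.0 Wald test, the replicate number as a block, only the groups compared, and each library or barcode set left out. Sums without Top2a and Mki67, or without Ccnd2, were added after seeing the data. The members and lists were chosen with earlier results of these data known. All 36 members were to be named, with the called genes of other lists or else the 2 with the smallest p, and for promoters the 3 mitosis and 3 replication members with the smallest p at 35 against 11.8 mM. Cell type marker lists are given by their sums.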

Additional observations from a re-analysis of the deposited data

How the results depend on the processing

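The count of called members stayed at 0 in all 3 comparisons under the alternatives run, including each library left out (0 to 0), except with no expression filter. That setting called 1 member at 20 against 11.8 mM (Plk1, -1.69, adjusted p = 0.034 by edgeR) and 2 at 35 against 11.8 mM (Mki67, -1, and Top2a, -0.64). Of all 15985 genes tested with no filter, 51 and 148 were called in these 2 comparisons. The unadjusted p by edgeR was itself lower with no filter than with it, at equal log2 fold changes. It was 7.45e-05 against 0.00358 for Plk1, 8.65e-05 against 0.015 for Mki67 and 0.000101 against 0.00207 for Top2a. DESeq2's Wald test called 1 other cell cycle gene, Spc25, at 20 against 11.8 mM. Only 2 of the other cell cycle genes had an adjusted p there, and 57 of all 1407 genes with one were called. At 35 against 20 mM the replication log2 ratio of -0.36 became -0.21 without barcode set 1 and -0.57 without barcode set 3, and the G1 log2 ratio at 35 against 11.8 mM became -0.25 without Ccnd2. The cause was not tested.

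With each library left out, the mitosis log2 ratio ranged from -0.41 to -0.02 at 20 against 11.8 mM, -0.81 to -0.49 at 35 against 11.8 mM and -0.62 to -0.26 at 35 against 20 mM. The replication log2 ratio ranged from 0.01 to 0.29, -0.35 to -0.07 and -0.42 to -0.27. Values near 0 at 35 against 11.8 mM changed sign, none of them called. Without a barcode set these were Mcm6 (0.20, set 1), Ccne2 (-0.09, set 3), Ccnd2 (-0.04, set 2) and Ccnd3 (-0.18, set 3). With each library left out in turn they were, as lowest to highest values, Ccna2 (-0.41 to 0.04), Ube2c (-0.03 to 0.54), Mcm4 (-0.19 to 0.38), Mcm6 (-0.60 to 0.07), Mcm7 (-0.38 to 0.07), Tyms (-0.06 to 0.46), Ccne2 (-0.11 to 0.50), Ccnd2 (-0.13 to 0.15) and Ccnd3 (-0.29 to 0.70).

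Over all tested genes, replicate numbers did not pair the libraries: the 9 same-number pairs correlated at -0.15 to 0.05, and 2 of 9 libraries correlated best with their own number. With the replicate number as a block 0 members were called in any comparison. Mki67, highest in the first library of each group (24.8, 20.3 and 9.39 CPM), then had an adjusted p of 0.069 at 35 against 11.8 mM, against 0.324 without the block (both by edgeR). The 11 members that the expression filter removed rest on few counts, and with no filter all 36 were tested.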
